A study of Homo sapiens with 27 samples.

Results

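These results are on 33 genes that androgens are known to induce in prostate cells, leaving out the kallikreins, and on how their messenger RNA levels changed when prostate cancer cells were treated with an inhibitor of fatty acid synthase. The genes were taken by name from a list of known androgen-induced genes, and all 33 were found among the 20987 genes of the count table. RNA sequencing of poly(A) RNA was made in 27 libraries, 3 for each of 9 groups. LNCaP cells, which the labels call androgen sensitive, and 22Rv1 and LNCaP95 cells, which the labels call castration resistant, were each kept for 6 days with DMSO, the solvent, as control, or with 100 nM or 500 nM IPI-9119. The drug was not renewed over the 6 days. The labels name no transgene or deletion in any group. LNCaP comes from a lymph node metastasis of a prostate cancer, LNCaP95 is a derivative of LNCaP kept without androgen, and 22Rv1 comes from a human prostate cancer xenograft that relapsed after castration of its host, so each line stands for 1 patient's tumour, and LNCaP95 for the same patient as LNCaP.

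Androgens, like glucocorticoids, act through steroid-activated transcription factors of the nucleus. These bind palindromic response elements, and in the prostate epithelium androgens thereby raise transcription of genes for secreted and membrane proteins. Glucocorticoids act through much the same element, and genes such as FKBP5 and TSC22D3 answer to both. IPI-9119 inhibits FASN, the enzyme that makes palmitate, the precursor of most fatty acids the cell makes itself.

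Promoter sequence was looked at for the genes that fell at both doses in LNCaP cells and for those that hold a half-site of the hormone response element. RefSeq promoters on GRCh38.p14, of which the 250 bases before each annotated start were searched on both strands, were matched by symbol for 24 of the 33 genes, leaving TMPRSS2, ADAMTS1, TPD52, ELL2, ZBTB10, MED28, NDRG1, NNMT and SORD. The 100 bases before the start are printed 5′ to 3′ on the gene's strand, with capitals on every GGGCGG (a GC box), CCAAT or TATAAA in either orientation. They belong to genes that fell at both doses in LNCaP and by 2-fold or more in at least 1 comparison.
SLC45A3 (chr1:205680510-205680609, minus strand): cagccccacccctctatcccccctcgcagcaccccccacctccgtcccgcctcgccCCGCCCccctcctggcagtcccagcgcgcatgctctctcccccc
TRPM8 (chr2:233917273-233917372, plus strand): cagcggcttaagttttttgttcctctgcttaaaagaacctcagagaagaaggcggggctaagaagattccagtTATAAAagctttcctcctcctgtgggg
TSC22D3 (chrX:107775989-107776088, minus strand): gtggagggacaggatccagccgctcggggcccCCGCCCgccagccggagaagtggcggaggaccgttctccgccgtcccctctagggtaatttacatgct
UAP1 (chr1:162561431-162561530, plus strand): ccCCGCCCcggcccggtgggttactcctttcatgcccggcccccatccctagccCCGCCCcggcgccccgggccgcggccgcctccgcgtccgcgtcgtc
CENPN (chr16:81007114-81007213, plus strand): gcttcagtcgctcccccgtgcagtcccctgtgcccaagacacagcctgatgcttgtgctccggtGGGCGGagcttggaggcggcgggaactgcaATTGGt
Of these 5 windows, those of SLC45A3, TSC22D3, UAP1 and CENPN hold a GC box and that of TRPM8 a TATA box. The CENPN window also holds CCAAT, on the other strand.
The half-site TGTTCT, or AGAACA on the other strand, is in capitals in the next 3 windows, the only matched genes of the 33 that held it.
TRPM8, before another annotated start (chr2:233979959-233980012, plus strand): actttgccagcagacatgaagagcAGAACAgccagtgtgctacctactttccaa
PMEPA1 (chr20:57710774-57710827, minus strand): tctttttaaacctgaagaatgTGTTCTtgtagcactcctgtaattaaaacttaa
LIFR (chr5:38557468-38557499, minus strand): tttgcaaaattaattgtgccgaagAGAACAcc
The half-site was thus in 3 of 24 genes, or 12.5%, against 14.8% of the 27305 genes of the promoter table. The full palindrome GNACANNNTGTNC was in 0 of the 24, against 0.399% of all genes. GGGCGG was in 70.8% of the 24 and 46.2% of all genes, CCAAT in 79.2% and 37.0%, and TATAAA in 20.8% and 13.0%. A gene counted if any of its promoters held the letters. The 24 genes had 46 promoters and the 27305 genes 35116, so the 24 had more promoters per gene and the shares are not on equal terms. Per promoter, GGGCGG was in 42.6% of all, CCAAT in 32.0% and TATAAA in 10.7%, and this was not counted for the 24. Androgen response elements are often far from the start, so a window without these letters does not say that a gene lacks one.

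Each library held 14757874 to 26578881 reads in genes. Values are the authors' normalised counts, that is, reads divided by a size factor for the library, and 1 read was worth 0.757 to 1.39 of them. KRT8, KRT18, EPCAM, CDH1, HOXB13 and FOXA1, markers of prostate luminal epithelium, all averaged over 10 in each line, and none of the 3 basal markers did. Of the neuroendocrine markers, CHGA and SYP passed that level in 22Rv1 and SYP in LNCaP. VWF, an endothelial marker, passed it in LNCaP, while PECAM1 was listed at 0 there. The LNCaP DMSO replicate 1 stood apart: 28 of the 33 genes had their highest DMSO value there, and its mean log2 level of 20 mitosis genes was 10.27, against 8.85 and 8.63 in the other DMSO libraries of the line. In the 22Rv1 DMSO replicate 3, 18444 genes were above 0, where the remaining 8 22Rv1 libraries had 15585 to 15962. Counts for LNCaP and 22Rv1 are therefore also given without these libraries. Replicate 1 was also the highest for 23 of the 33 genes at 100 nM and for 25 at 500 nM in LNCaP, so leaving out its DMSO library alone keeps the high treated ones, and counts with replicates 2 and 3 only are given too. In LNCaP95, mitochondrial genes took 7.56% of counts in the 100 nM replicate 2 and 6.92% in the 500 nM replicate 2, against 1.78 to 3.75% in the remaining 7 libraries of the line. The labels do not say that replicates were separate cultures, so the p-values measure the spread between libraries, which may be technical. Bulk RNA also cannot tell fewer cells expressing a gene from less RNA per cell.

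In LNCaP cells treated with IPI-9119, more of these genes were lower than higher. A gene was called where limma, fitted to log2(normalised count + 1) of the 9 libraries of the line, gave a Benjamini-Hochberg adjusted p under 0.05 over all genes tested. At 500 nM, TMPRSS2, SLC45A3, TRPM8, TSC22D3, SPDEF, CAMKK2, UAP1 and CENPN fell, and ADAMTS1 and GNMT rose. That is 8 lower and 2 higher of 33, beside a background of 9.83% of all 12837 genes tested that were lower and 11.0% that were higher, 20.8% in all. At 100 nM, 10 were lower and 2 higher, beside 11.6% and 13.7% of all genes, 25.3% in all. The further genes lower at 100 nM were ZNF189 and BMPR1B. The median log2 fold change of the 33 was -0.13 at 500 nM and -0.19 at 100 nM, against -0.007 and -0.003 over all genes tested. Without the DMSO replicate 1, 9 were lower and 6 higher at 500 nM, and 10 lower and 6 higher at 100 nM. The medians were then 0.01 and -0.07. FKBP5, SGK1, NDRG1 and HPGD were among the higher ones, at log2 fold changes of 0.67, 1.47, 0.34 and 1.20 at 500 nM. With libraries scaled to equal totals, 1830 of all genes were higher and 824 lower at 500 nM, against 1409 and 1262 with the deposited scaling, and 2105 and 1098 at 100 nM, against 1765 and 1485. The calls among the 33 were then 3 higher and 8 lower at 500 nM and 2 higher and 9 lower at 100 nM, with medians of -0.06 and -0.15. With replicates 2 and 3 only, 8 were higher and 10 lower at 500 nM, and 6 higher and 13 lower at 100 nM. In this paragraph and below, shares of all genes are those of the main fit of each comparison. A count from another fit has no share of its own fit beside it unless counts of all genes are printed. Same-numbered DMSO and 500 nM libraries of LNCaP deviated together, with correlations of 0.131 or more. DMSO replicate 3 did so as much with 500 nM replicate 2 (0.131), so pairing by number is uncertain. The 100 nM libraries, whose numbers did not pair with DMSO, were in the same fit. A fit with the replicate as a block called 7 higher and 11 lower at 500 nM. It added ACPP (0.56, adjusted p = 0.00406), SGK1 (1.08, adjusted p = 0.0165), MAF (0.44, adjusted p = 0.0242), HERC3 (0.34, adjusted p = 0.00716) and HPGD (0.84, adjusted p = 0.00424) to the higher genes. To the lower ones it added TPD52 (-0.30, adjusted p = 0.00791), ZNF189 (-0.34, adjusted p = 0.0214) and BMPR1B (-0.40, adjusted p = 0.0199).

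In 22Rv1 cells few of the genes were called, and SLC45A3 had the largest fold change among those called. At 500 nM, 3 of the 31 genes tested fell, SLC45A3, ZNF189 and NDRG1, and GNMT rose. The background was 3.5% of 13563 genes lower and 3.47% higher, 6.97% in all. At 100 nM, SLC45A3 and NDRG1 fell and 0 rose, beside 3.36% and 3.19% of all genes, 6.55% in all. At that dose 8 of the 31 had an unadjusted p under 0.05, and edgeR and DESeq2 also called 0 higher. Without the DMSO replicate 3, SLC45A3 was the 1 gene called at either dose. With equal library totals, 338 of all genes were higher and 930 lower at 500 nM, against 471 and 475, and 285 and 775 at 100 nM, against 433 and 456. TRPM8 and NNMT did not reach the minimum of 10 normalised counts in 3 libraries and were not tested.

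In LNCaP95 cells, 16 of the 30 genes tested changed at 500 nM, 8 up and 8 down. ACPP, TSC22D3, MAF, HERC3, NDRG1, ALDH1A3, ZBTB10 and C1orf116 rose. CENPN, FKBP5, ELL2, ADAMTS1, MPHOSPH9, SPDEF, SORD and CAMKK2 fell. IPI-9119 moved much of the transcriptome in this line, with 28.2% of 12844 genes higher and 24.1% lower, 52.3% in all, so 8 of 30 in each direction is close to the background. At 100 nM the counts were again 8 and 8, beside 28.2% and 24.1% (52.3% in all), with LIFR among the higher and EAF2 among the lower ones. BMPR1B, NNMT and HPGD were too low to be tested. Replicate numbers pair the libraries in this line, and a fit with the replicate as a block added LIFR to the higher genes at 500 nM (log2 fold change 0.19, adjusted p = 0.0199) and MED28 to the lower ones at 100 nM (-0.20, adjusted p = 0.0396). Without the replicate 2 library of the dose, which had the high mitochondrial share, the counts were 7 higher and 8 lower at 500 nM and 8 and 8 at 100 nM, and the part of that share in the values was otherwise not tested.

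**Figure D1:**
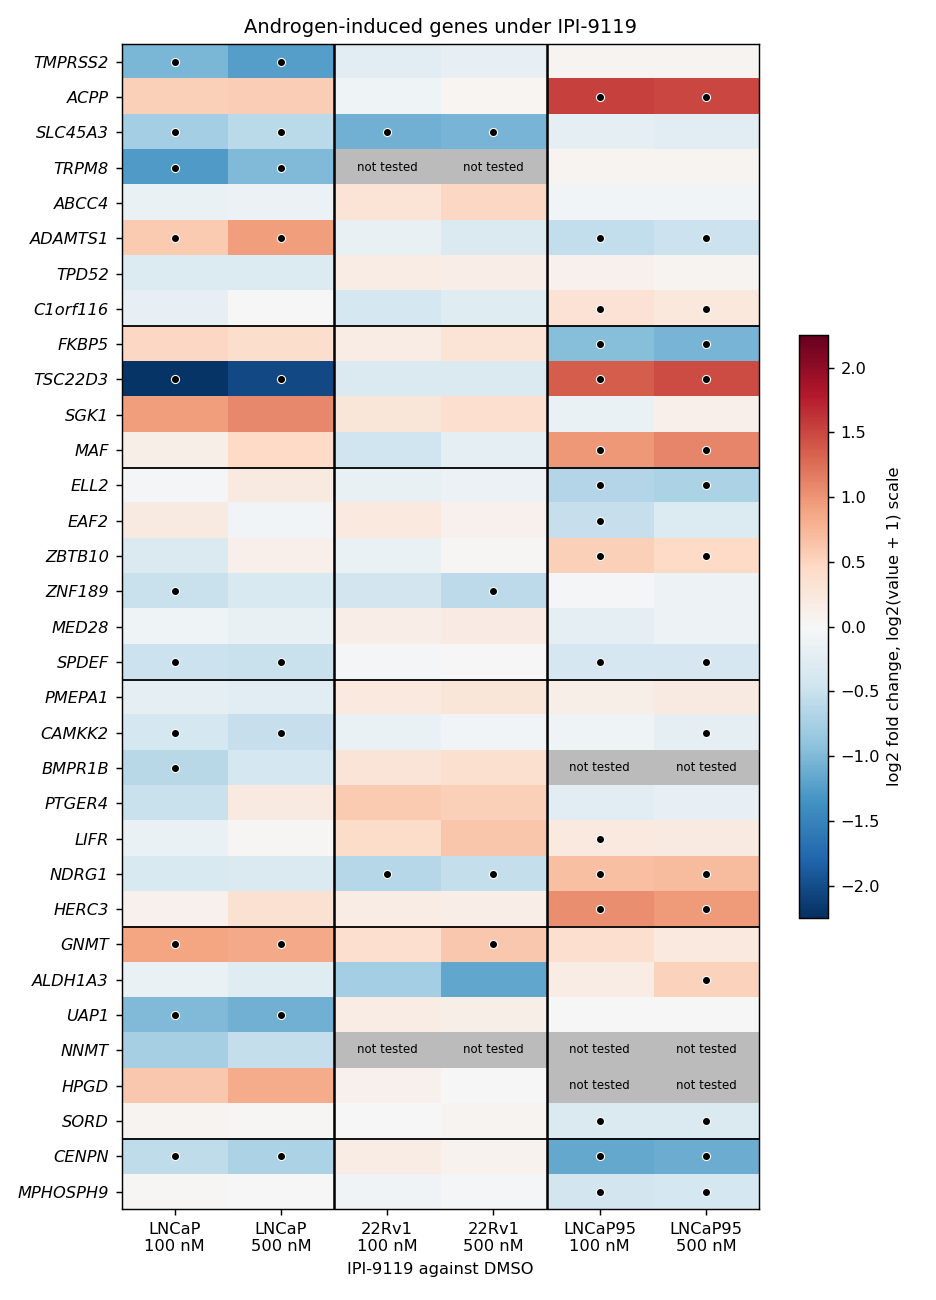
Log2 fold change of each of the 33 genes at 100 nM and 500 nM IPI-9119 against DMSO in LNCaP, 22Rv1 and LNCaP95, with genes in rows grouped by role. A dot marks an adjusted p under 0.05 (limma) and grey a gene not tested; TSC22D3 stands out with negative values in LNCaP and positive ones in LNCaP95.

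Over the 6 comparisons with DMSO, 25 of the 33 genes were called at least once, beside 63.4% of the 14526 genes tested in at least 1 of them. Of these, 16 were called in 1 line, 9 in 2 lines and 0 in 3, beside 43.2%, 17.9% and 2.22% of all genes. A change of 2-fold in a comparison with a call, reached by 10, served only to choose whose library values are printed. The share of all genes that reach it was not counted. ADAMTS1, TSC22D3 and NDRG1 were called in opposite directions in different lines. In the main fits, 8 genes were never called. These included ABCC4, an efflux pump, TPD52, a vesicle protein, SGK1, a kinase, and MED28, a Mediator subunit. Also among them were PMEPA1, a membrane inhibitor of TGF-β signalling, PTGER4, a prostaglandin receptor, NNMT, which methylates nicotinamide, and HPGD, which inactivates prostaglandins. Of the 8, SGK1, HPGD, TPD52, MED28 and PMEPA1 were called in some fits with other settings. The doses of a line share their DMSO libraries, so values at both doses are set side by side below without any count of agreement.

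The secretory and membrane proteins of the prostate form the largest group. TMPRSS2, an androgen-driven serine protease of the cell surface, had 13402, 9843 and 8751 normalised counts in the 3 LNCaP DMSO libraries, 5556, 4785 and 5129 at 100 nM and 5890.2, 3965 and 3775 at 500 nM. Every treated library was below every DMSO library. On the log2 scale it fell by 1.03 ± 0.18 (SE; adjusted p = 0.00265) at 100 nM and by 1.24 ± 0.18 (adjusted p = 0.000937) at 500 nM. The 500 nM drop is 2.36-fold. Without the high DMSO replicate 1 the 500 nM change was -1.06. In 22Rv1 it ranged over 539 to 848 in treated and 705 to 941 in DMSO libraries, and in LNCaP95 over 326 to 391 and 274 to 464, overlapping in both lines.

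SLC45A3, or prostein, a prostate membrane transporter, was lower in LNCaP and in 22Rv1. In LNCaP it had 3798, 3229 and 3444 normalised counts in DMSO, 2559, 1865 and 1837 at 100 nM and 2705, 2156 and 2073 at 500 nM. In 22Rv1 it had 3317, 3036 and 4028 in DMSO, 1545, 1542 and 1769 at 100 nM and 1503, 1507 and 2006 at 500 nM. No treated library of either line reached a DMSO library. In 22Rv1 it fell 2.13-fold at 100 nM (log2 fold change -1.09 ± 0.14, adjusted p = 0.000721) and 2.07-fold at 500 nM (-1.05 ± 0.14, adjusted p = 0.000918). In LNCaP it fell by 0.76 ± 0.14 on the log2 scale at 100 nM (adjusted p = 0.00357) and by 0.60 ± 0.14 at 500 nM (adjusted p = 0.0123). The 500 nM call in LNCaP was lost without its replicate 2 (adjusted p = 0.0516) or 3 (adjusted p = 0.0555). In LNCaP95 the log2 fold change was -0.25 ± 0.17 at 500 nM, not called.

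ACPP, prostatic acid phosphatase, a classical secreted product of the gland, rose in LNCaP95. It had 959, 1104 and 1095 normalised counts in DMSO, 2741, 3221 and 3231 at 100 nM and 2699, 3226 and 2996 at 500 nM. The treated libraries lay far above the DMSO ones, a 2.91-fold rise at 100 nM (adjusted p = 1.44e-07) and a 2.82-fold rise at 500 nM (log2 fold change 1.50 ± 0.0907, adjusted p = 1.79e-07). In LNCaP it had 444 to 605 at 500 nM against 250.4 to 428 in DMSO, without overlap but not called (log2 fold change 0.56 ± 0.23, adjusted p = 0.102). TRPM8, the cold-sensing cation channel, had 941, 383 and 395 in LNCaP DMSO libraries, 255, 177 and 223 at 100 nM and 295, 244 and 250.1 at 500 nM. The treated libraries were all below the DMSO ones, and DMSO replicate 1 was more than 2-fold above the other DMSO libraries. TRPM8 fell by 1.27 ± 0.29 at 100 nM (adjusted p = 0.00963) and 0.99 ± 0.29 at 500 nM (adjusted p = 0.0326), and by 0.57 at 500 nM without DMSO replicate 1. The 500 nM call was lost without 500 nM replicate 1, 2 or 3 (adjusted p = 0.0608, 0.0954 and 0.092), and both calls were lost with all 27 libraries in 1 fit (adjusted p = 0.196 at 500 nM and 0.0827 at 100 nM).

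ADAMTS1, a secreted metalloprotease of the matrix, went up in LNCaP and down in LNCaP95. In LNCaP it had 5321, 5131 and 5075 normalised counts in DMSO, 7279.9, 7772 and 8363 at 100 nM and 8497, 10609.5 and 10947 at 500 nM, a rise of 0.94 ± 0.10 at 500 nM (adjusted p = 0.000147). In LNCaP95 it had 1194, 1269 and 1136 in DMSO, 838, 837 and 764 at 100 nM and 929, 879 and 782 at 500 nM, a fall of 0.48 ± 0.0823 (adjusted p = 0.000325). Neither set of treated libraries overlapped its DMSO libraries. C1orf116, a gene named for its regulation by androgen, rose in LNCaP95 by 0.33 at 100 nM and 0.24 at 500 nM (adjusted p = 0.00739), and these calls were lost with all 27 libraries in 1 fit (adjusted p = 0.0948 and 0.23). Counting the whole group of 8 at 500 nM, 3 fell and 1 rose in LNCaP, 1 of 7 tested fell in 22Rv1, and 2 rose and 1 fell in LNCaP95. Of all genes tested, 9.83% fell and 11.0% rose in LNCaP, 3.5% and 3.47% in 22Rv1, and 24.1% and 28.2% in LNCaP95. The counts of the further groups at 500 nM stand beside the same shares.

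**Figure D2:**
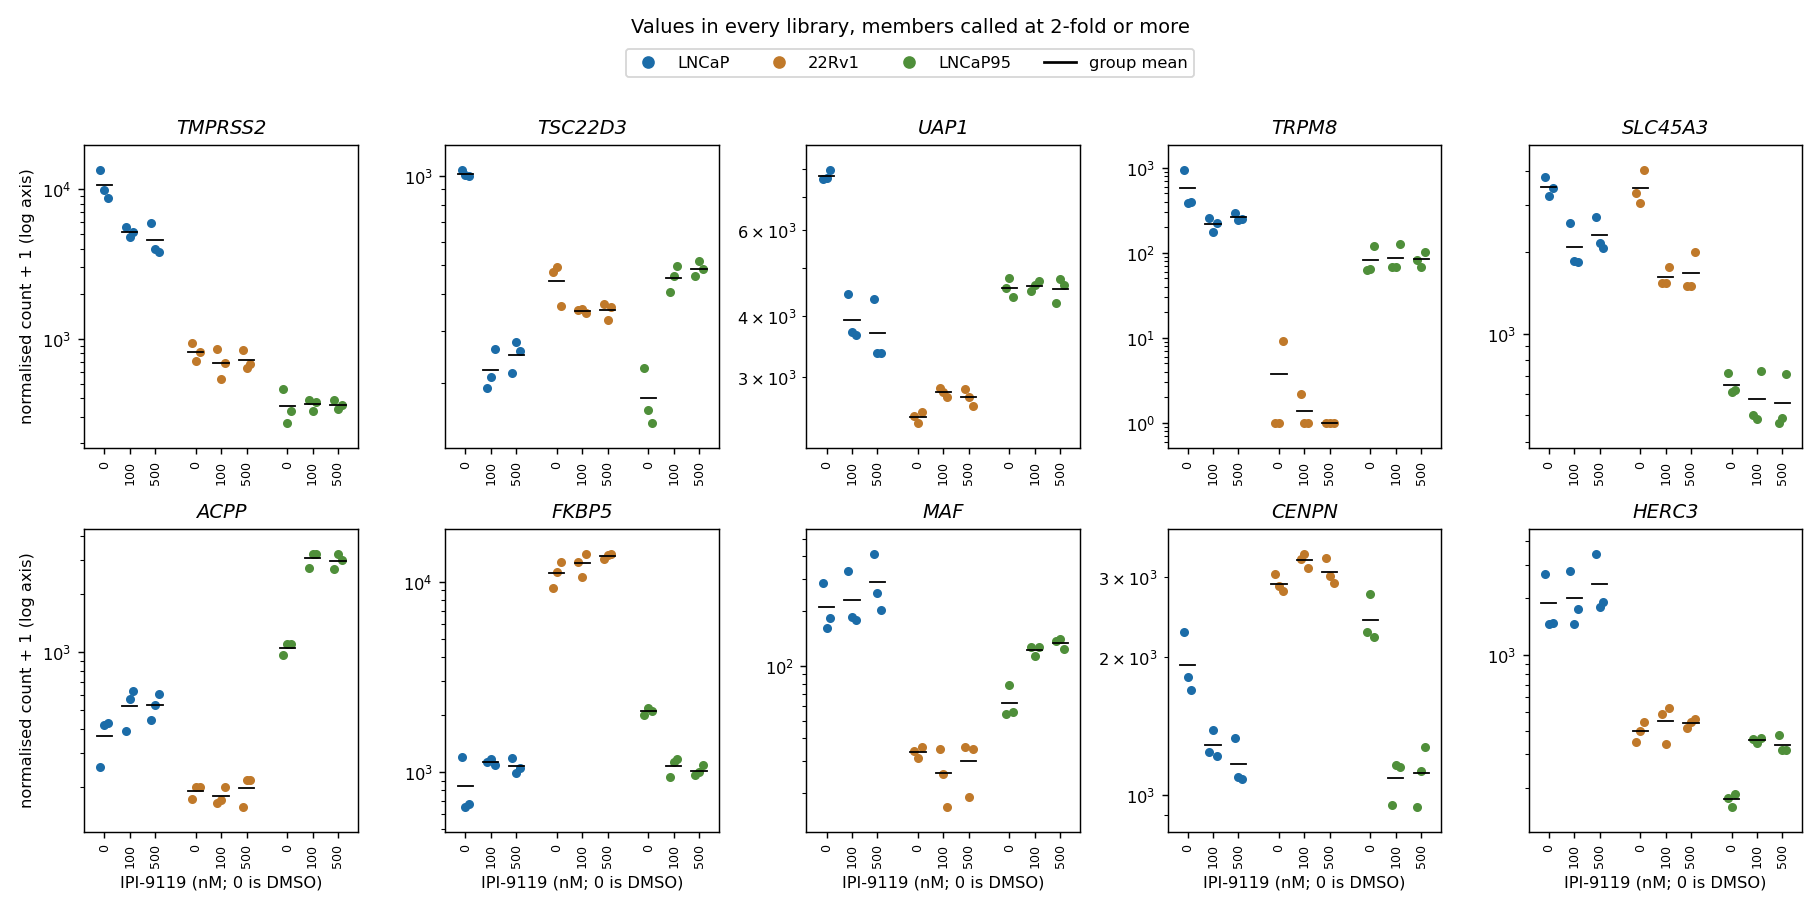
Normalised count + 1 (log axis) of the 10 genes called at 2-fold or more, in every library at 0 (DMSO), 100 and 500 nM IPI-9119 of LNCaP, 22Rv1 and LNCaP95. Points are libraries and bars group means; TSC22D3 points drop in LNCaP and climb in LNCaP95, while SLC45A3 drops in 22Rv1.

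Of the 4 genes that other steroid receptors also induce, 1 fell at 500 nM in LNCaP, and 2 rose and 1 fell in LNCaP95. TSC22D3, the glucocorticoid-induced leucine zipper, gave the largest log2 fold change of the 33 in LNCaP. It had 1044, 1005 and 997 normalised counts in LNCaP DMSO libraries, 192, 209 and 261 at 100 nM and 216, 276 and 256 at 500 nM. In LNCaP95 it had 224, 162 and 146 in DMSO, 405, 459 and 496 at 100 nM and 459.9, 514 and 484 at 500 nM. The LNCaP treated libraries all lay below the DMSO ones, and the LNCaP95 treated libraries all above. In LNCaP it fell 4.63-fold at 100 nM (adjusted p = 9.49e-06) and 4.08-fold at 500 nM (log2 fold change -2.03 ± 0.13, adjusted p = 1.25e-05). In LNCaP95 it rose by 1.37 ± 0.14 at 100 nM (adjusted p = 5.04e-06) and by 1.47 ± 0.14, or 2.77-fold, at 500 nM (adjusted p = 2.79e-06). In 22Rv1 it had 326 to 368 at 500 nM against 364 to 491 in DMSO, and was not called (adjusted p = 0.159).

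FKBP5, the immunophilin that binds steroid receptors with Hsp90, fell in LNCaP95. It had 1997, 2174 and 2092 normalised counts in DMSO, 939.7, 1120.0 and 1163 at 100 nM and 957, 999.5 and 1085 at 500 nM. The treated libraries were about level with each other and all under the DMSO ones, a 2.06-fold fall at 500 nM (log2 fold change -1.04 ± 0.0869, adjusted p = 1.15e-06). In LNCaP it had 1182, 986 and 1043 at 500 nM against 1193, 657 and 681 in DMSO. DMSO replicate 1 overlapped the treated libraries and no call was made (0.40 ± 0.19, adjusted p = 0.157). MAF, a basic leucine zipper transcription factor, had 53.7, 77.5 and 54.6 in LNCaP95 DMSO libraries, 125, 112 and 126 at 100 nM and 136, 140.0 and 122 at 500 nM, a 2.15-fold rise at 500 nM (adjusted p = 7.62e-05) with no overlap. In LNCaP its treated and DMSO libraries overlapped (201 to 412 at 500 nM against 160.2 to 285). SGK1, a serine/threonine kinase and the lowest of the 33 per length in LNCaP DMSO libraries, had 32.3, 16.1 and 12.0 in DMSO, 52.6, 30.6 and 29.6 at 100 nM and 44.6, 34.4 and 42.2 at 500 nM. Its 500 nM libraries were above the DMSO ones without a call (1.08 ± 0.36, adjusted p = 0.0529). With the replicate block, or without DMSO replicate 1, it was called, at 1.08 and 1.47.

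Among the transcription and elongation factors, SPDEF was lower in LNCaP and LNCaP95. SPDEF, an ETS factor of luminal epithelium, had 2696, 2170.1 and 2081 normalised counts in LNCaP DMSO libraries, 1792, 1727 and 1434 at 100 nM and 1748, 1661 and 1463 at 500 nM. It fell by 0.51 ± 0.12 at 500 nM in LNCaP (adjusted p = 0.0143) and by 0.38 ± 0.13 in LNCaP95 (adjusted p = 0.0268). The LNCaP call was lost without 500 nM replicate 3 (adjusted p = 0.0642). The LNCaP95 call at 500 nM was lost without DMSO replicate 1 or 3 or 500 nM replicate 1 (adjusted p = 0.0529 to 0.12), and the one at 100 nM without DMSO replicate 1 or 3 or 100 nM replicate 1 (adjusted p = 0.0561 to 0.129). ELL2, an elongation factor of RNA polymerase II, fell in LNCaP95 by 0.66 ± 0.0901 at 100 nM and 0.72 ± 0.0901 at 500 nM (adjusted p = 2.54e-05), with 839 to 1022 at 500 nM against 1396 to 1635 in DMSO. Its partner EAF2 fell at 100 nM (-0.51 ± 0.16, adjusted p = 0.0175), and the call was lost without DMSO replicate 2 or 100 nM replicate 1 or 3 (adjusted p = 0.0536 to 0.0752). At 500 nM EAF2 was not called (-0.31 ± 0.16, adjusted p = 0.122).

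ZBTB10, a zinc finger repressor, rose in LNCaP95 by 0.53 ± 0.0909 at 100 nM and 0.45 ± 0.0909 at 500 nM (adjusted p = 0.0011), and the 500 nM call was lost with all 27 libraries in 1 fit (adjusted p = 0.0839). ZNF189, a zinc finger protein, fell in LNCaP at 100 nM (-0.50 ± 0.14, adjusted p = 0.0219) and in 22Rv1 at 500 nM (-0.59 ± 0.16, adjusted p = 0.0406). The LNCaP call was lost without DMSO replicate 2 or 3 or 100 nM replicate 1 or 2 (adjusted p = 0.0521 to 0.095), and the 22Rv1 call without DMSO replicate 2 or 3 or any 500 nM replicate (adjusted p = 0.0745 to 0.148). Of the 6 factors at 500 nM, 1 fell in LNCaP, 1 fell in 22Rv1, and 1 rose and 2 fell in LNCaP95.

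Of the 7 signalling proteins and receptors, 1 fell at 500 nM in LNCaP and 1 in 22Rv1, and of the 6 tested in LNCaP95, 2 rose and 1 fell. CAMKK2, the calcium-dependent kinase that activates AMPK, had 1740.3, 1736 and 1592 normalised counts in LNCaP DMSO libraries, 1321, 1202 and 1343 at 100 nM and 1368, 1030.3 and 1147 at 500 nM. It fell by 0.52 ± 0.11 at 500 nM (adjusted p = 0.00611) and by 0.39 ± 0.11 at 100 nM (adjusted p = 0.0218). The 100 nM call was lost without DMSO replicate 2 or 100 nM replicate 2 (adjusted p = 0.0787 and 0.0824). In LNCaP95 it fell by 0.21 ± 0.0758 at 500 nM (adjusted p = 0.0321), and the call was lost without DMSO replicate 1 or 3 or 500 nM replicate 1 or 3 (adjusted p = 0.0554 to 0.12). HERC3, a ubiquitin ligase of the HECT family, had 176, 158 and 184 in LNCaP95 DMSO libraries, 362, 344 and 363 at 100 nM and 379, 315 and 316 at 500 nM. All treated libraries were above the DMSO ones, by 1.04 ± 0.11 or 2.06-fold at 100 nM (adjusted p = 4.88e-06) and 0.95 ± 0.11 at 500 nM (adjusted p = 9.05e-06).

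NDRG1, a stress-inducible protein that hypoxia also induces, rose in LNCaP95 and fell in 22Rv1. In LNCaP95 it had 188, 209 and 171 normalised counts in DMSO, 325, 302 and 283 at 100 nM and 315, 311 and 299.5 at 500 nM, a rise of 0.71 ± 0.10 at 500 nM (adjusted p = 9.18e-05). In 22Rv1 it had 593, 705 and 752 in DMSO, 472, 422 and 412 at 100 nM and 421, 496 and 501 at 500 nM, a fall of 0.53 ± 0.12 at 500 nM (adjusted p = 0.0238) and 0.65 ± 0.12 at 100 nM (adjusted p = 0.0102). Neither line's treated libraries overlapped its DMSO ones. In 22Rv1 the 500 nM call was lost without DMSO replicate 2 or 3 or any 500 nM replicate (adjusted p = 0.0578 to 0.103), and the 100 nM call without DMSO replicate 2 or 3 (adjusted p = 0.0503 and 0.0509). In LNCaP it had 905, 914 and 912 at 500 nM against 2829, 673 and 773 in DMSO, where replicate 1 was over 3 times the others. With replicate 1 the log2 fold change was -0.32 ± 0.40, not called, and without it 0.34, called (adjusted p = 0.0206). A mean over 10 hypoxia genes was also higher in that library, at 8.28 on the log2 scale against 7.44 and 7.25 in the other DMSO libraries. The part of that in the NDRG1 value was not tested. BMPR1B, a BMP receptor, fell in LNCaP at 100 nM (-0.63 ± 0.15, adjusted p = 0.0106) but was not called with all 27 libraries in 1 fit (adjusted p = 0.304). LIFR, the receptor for leukaemia inhibitory factor, rose in LNCaP95 at 100 nM (0.23 ± 0.0805, adjusted p = 0.0305), and the call was lost without DMSO replicate 1 or 2 or 100 nM replicate 1 or 3 (adjusted p = 0.06 to 0.145). BMPR1B in LNCaP95, the lowest of the 33 per length in DMSO there, had 0.880, 1.57 and 6.07 in DMSO, 3.98, 0 and 4.53 at 100 nM and 2.77, 2.06 and 1.19 at 500 nM.

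UAP1, which makes UDP-N-acetylglucosamine for protein glycosylation, fell in LNCaP. It had 7624, 7644 and 7951 normalised counts in DMSO, 4424, 3699 and 3649 at 100 nM and 4336, 3364 and 3350.3 at 500 nM. All treated libraries lay well under the DMSO ones, a fall of 0.99 ± 0.11 at 100 nM (adjusted p = 0.000236) and 1.08 ± 0.11, or 2.12-fold, at 500 nM (adjusted p = 0.000112). In 22Rv1 it had 2612 to 2833 at 500 nM against 2416 to 2538 in DMSO, and in LNCaP95 4255 to 4753 against 4362 to 4791, neither called. GNMT, which methylates glycine, had 163, 102 and 103 in LNCaP DMSO libraries, 327, 199 and 171 at 100 nM and 276, 192 and 192 at 500 nM. It rose by 0.85 ± 0.26 in LNCaP (adjusted p = 0.0395) and by 0.61 ± 0.16 in 22Rv1 (adjusted p = 0.0354) at 500 nM. The LNCaP call was lost without DMSO replicate 2 or 3 or any 500 nM replicate (adjusted p = 0.068 to 0.146), and the 22Rv1 call without DMSO replicate 2 or 3 or any 500 nM replicate (adjusted p = 0.0583 to 0.149). At 100 nM in LNCaP it rose by 0.89 ± 0.26 (adjusted p = 0.0281), and that call was lost without DMSO replicate 2 or 3 or 100 nM replicate 1 or 2 (adjusted p = 0.0581 to 0.102).

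ALDH1A3, which makes retinoic acid, rose in LNCaP95 at 500 nM (0.51 ± 0.18, adjusted p = 0.0307), and the call was lost without DMSO replicate 2 or 3 or 500 nM replicate 2 or 3 (adjusted p = 0.058 to 0.119). In 22Rv1 its libraries held 6.76 to 14.4 at 500 nM against 21.7 to 27.7 in DMSO, not called (-1.17 ± 0.34, adjusted p = 0.0574). SORD, sorbitol dehydrogenase, fell in LNCaP95 by 0.32 ± 0.0881 at 500 nM (adjusted p = 0.00772). A near-identical SORD pseudogene exists, and since the handling of reads that match both copies is not stated, this value is uncertain. Of the 6 enzymes at 500 nM, 1 rose and 1 fell in LNCaP, 1 of 5 tested rose in 22Rv1, and 1 rose and 1 fell of 4 tested in LNCaP95.

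The cell division genes CENPN and MPHOSPH9 both fell in LNCaP95. CENPN, a centromere protein that recruits the kinetochore to CENP-A, had 2276, 2757 and 2217 normalised counts in LNCaP95 DMSO libraries, 949.6, 1157 and 1147 at 100 nM and 940.1, 1125 and 1273 at 500 nM. In LNCaP it had 2270.1, 1807 and 1696 in DMSO, 1239, 1387 and 1216 at 100 nM and 1328, 1092 and 1079 at 500 nM. Treated libraries were below all DMSO libraries in both lines. It fell 2.18-fold at 500 nM in LNCaP95 (log2 fold change -1.12 ± 0.12, adjusted p = 6.55e-06) and by 0.72 ± 0.12 in LNCaP (adjusted p = 0.00243). MPHOSPH9, an M-phase phosphoprotein of centrioles, fell in LNCaP95 by 0.39 ± 0.0885 (adjusted p = 0.00226). All 20 mitosis genes of a marker list fell in LNCaP95 at both doses, beside 24.1% of all genes. In LNCaP, 17 of the 20 were higher at 100 nM and 3 at 500 nM, beside 13.7% and 11.0% of all genes, while CENPN fell. Between these doses, 1 of all 12837 genes was called, so 17 and 3 are not to be read as a dose effect. The mean log2 level of the mitosis genes was 9.57 to 10.16 in treated LNCaP95 libraries against 11.32 to 11.45 in DMSO. In LNCaP it was 9.98 to 10.93 in treated libraries against 8.63 to 10.27 in DMSO. The 10.27 was DMSO replicate 1, against 8.85 and 8.63 in replicates 2 and 3, and no count of these genes without it is given. The part of cell cycling in the CENPN and MPHOSPH9 values was not tested.

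The higher dose gave no further change that could be called. Comparing 500 nM with 100 nM, 0 of the 33 genes were called in LNCaP, 0 of 31 in 22Rv1 and 0 of 30 in LNCaP95 with limma, edgeR or DESeq2, beside 0.00779%, 0.0% and 0.0% of all genes with limma. At an unadjusted p under 0.05 there were 3 in LNCaP, 0 in 22Rv1 and 0 in LNCaP95. The 3 were ADAMTS1 (0.35 ± 0.10), ZBTB10 (0.43 ± 0.19) and PTGER4 (0.71 ± 0.32). With LNCaP replicates 2 and 3 only, ADAMTS1 (0.42, adjusted p = 0.0191) and ZBTB10 (0.50, adjusted p = 0.0334) were called higher at 500 nM.

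Untreated, the lines had these genes at very different levels, which were compared in 1 limma fit of all 27 libraries. LNCaP95 is a line kept without androgen, and the part of androgen supply in these levels was not tested. In LNCaP95 against LNCaP, 6 of the 33 were higher and 21 lower, beside 34.0% and 32.5% of 14026 genes, 66.5% in all. In 22Rv1 against LNCaP, 9 were higher and 20 lower, beside 39.3% and 35.5% of all genes, 74.8% in all. In LNCaP95 against 22Rv1, 12 were higher and 18 lower, beside 35.4% and 40.8%, 76.1% in all. The median log2 fold changes were -1.11, -0.74 and -0.32, against 0.01, 0.04 and -0.07 over all genes. Scaling to equal totals moved the all-gene median of LNCaP95 against LNCaP to 0.21 and its split of all genes to 6008 higher and 3499 lower, against 4764 and 4561, and gave 9 higher and 21 lower of the 33. The all-gene median of LNCaP95 against 22Rv1 moved to 0.07 with equal totals and 0.07 with quantile normalisation, and that of 22Rv1 against LNCaP to -0.12 with quantile normalisation.

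TMPRSS2 was 30.2-fold lower in LNCaP95 and 12.9-fold lower in 22Rv1 than in LNCaP (DMSO values as above). SLC45A3 was 5.37-fold lower in LNCaP95 than in LNCaP (log2 fold change -2.43 ± 0.17, adjusted p = 7.42e-12), while 22Rv1 and LNCaP differed by -0.02 ± 0.17, not called. FKBP5 had 9294, 11201 and 12738 normalised counts in 22Rv1, 13.5-fold more than LNCaP, and was 2.57-fold higher in LNCaP95 than in LNCaP. ACPP ran the other way from TMPRSS2 in LNCaP95, 2.96-fold higher than in LNCaP and 5.55-fold higher than in 22Rv1. ABCC4 was 59.8-fold lower in 22Rv1 and 6.89-fold lower in LNCaP95 than in LNCaP. ALDH1A3 was 45.3-fold lower in 22Rv1 and 22.9-fold lower in LNCaP95 than in LNCaP.

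HPGD was high in 22Rv1, with 4834, 4921 and 4778 normalised counts, against 5.28, 2.35 and 3.04 in LNCaP95 and 87.7, 43.6 and 39.0 in LNCaP. TRPM8, the lowest of the 33 per length in 22Rv1 DMSO libraries, had 0, 0 and 8.25 in 22Rv1 DMSO libraries, 1.16, 0 and 0 at 100 nM and 0, 0 and 0 at 500 nM. Its single value above 2 came from DMSO replicate 3. ZBTB10 was 28.6-fold lower and PMEPA1 9.47-fold lower in LNCaP95 than in 22Rv1. The 6 metabolic enzymes were all lower in LNCaP95 than in LNCaP, with log2 fold changes of -0.76 for UAP1, -1.11 for SORD, -1.77 for GNMT and -4.51 for ALDH1A3, and NNMT and HPGD at under 10 normalised counts in each LNCaP95 DMSO library. NDRG1 was called lower in 22Rv1 than in LNCaP (-0.74 ± 0.29), but not without LNCaP DMSO replicate 1 (-0.08, adjusted p = 0.512).

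**Figure D3:**
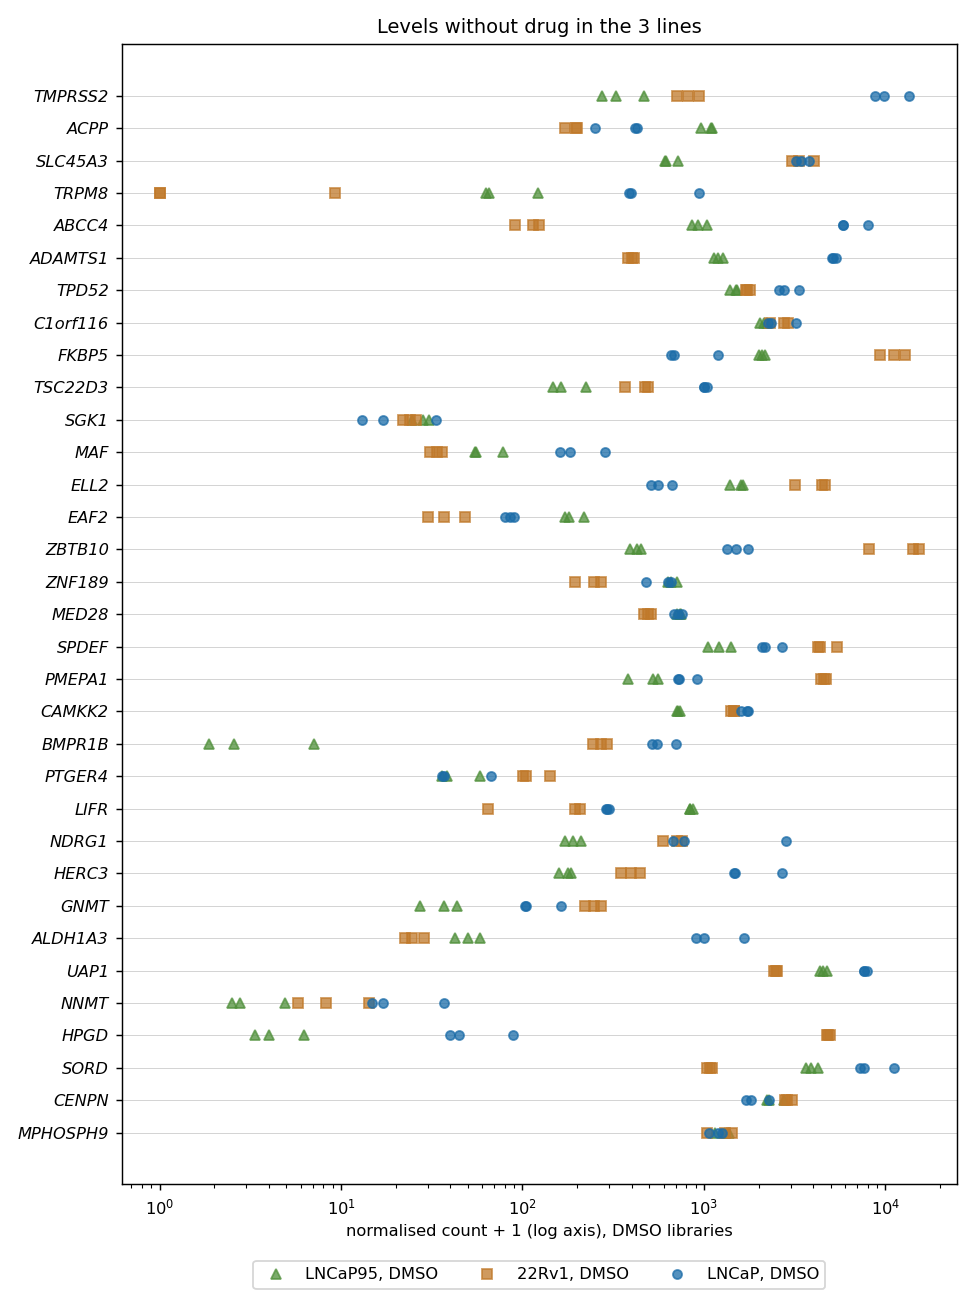
Normalised count + 1 (log axis) of each of the 33 genes in the 3 DMSO libraries of LNCaP95, 22Rv1 and LNCaP. TMPRSS2, ABCC4 and ALDH1A3 lie furthest right in LNCaP, HPGD and FKBP5 in 22Rv1, and ACPP in LNCaP95.

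Per kilobase of exon in DMSO libraries, SPDEF led in 22Rv1 at 2442 ± 335 normalised counts (SD, n = 3), with 5411, 4253 and 4359 unscaled for length in DMSO, 4775, 5341 and 3674 at 100 nM and 4869, 4445 and 4743 at 500 nM. UAP1 led in LNCaP95 at 1922 ± 90.4 and in LNCaP at 3256 ± 77.2. In LNCaP, UAP1 stood next to TMPRSS2 at 3211 ± 732, within its spread. The lowest were BMPR1B in LNCaP95 at 0.480 ± 0.477, TRPM8 in 22Rv1 at 0.463 ± 0.802 and SGK1 in LNCaP at 3.18 ± 1.69. Together the 33 genes took 0.248 to 0.378% of counts in LNCaP libraries, 0.251 to 0.353% in 22Rv1 and 0.144 to 0.166% in LNCaP95.

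The response to 500 nM differed between lines for some of these genes, by a test of the difference itself in the fit of all 27 libraries, over 29 of the 33 genes. LNCaP95 minus LNCaP gave 6 differences above 0 and 3 below, beside 19.8% and 19.1% of 11761 genes, 38.9% in all. For 22Rv1 minus LNCaP there were 5 above and 1 below, beside 6.79% and 7.52%, 14.3% in all. For LNCaP95 minus 22Rv1 there were 6 above and 3 below, beside 13.0% and 12.4%, 25.4% in all. TSC22D3 gave the largest, at 3.50 ± 0.20 log2 units between LNCaP95 and LNCaP (adjusted p = 1.03e-11). FKBP5 (-1.44 ± 0.22), ADAMTS1 (-1.42 ± 0.15), TMPRSS2 (1.30 ± 0.27), UAP1 (1.07 ± 0.12) and NDRG1 (1.03 ± 0.40) differed by over 1 log2 unit between those lines too, the NDRG1 difference being 0.37 (adjusted p = 0.0536) without LNCaP DMSO replicate 1. With the replicate block, LNCaP95 minus LNCaP gave 11 above and 7 below. The differences share libraries with each other. With equal library totals the counts were 4 above and 6 below for LNCaP95 minus LNCaP, and 4 and 2 for 22Rv1 minus LNCaP, and the all-gene median of the second moved to -0.14, against 0.01.

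**Figure D4:**
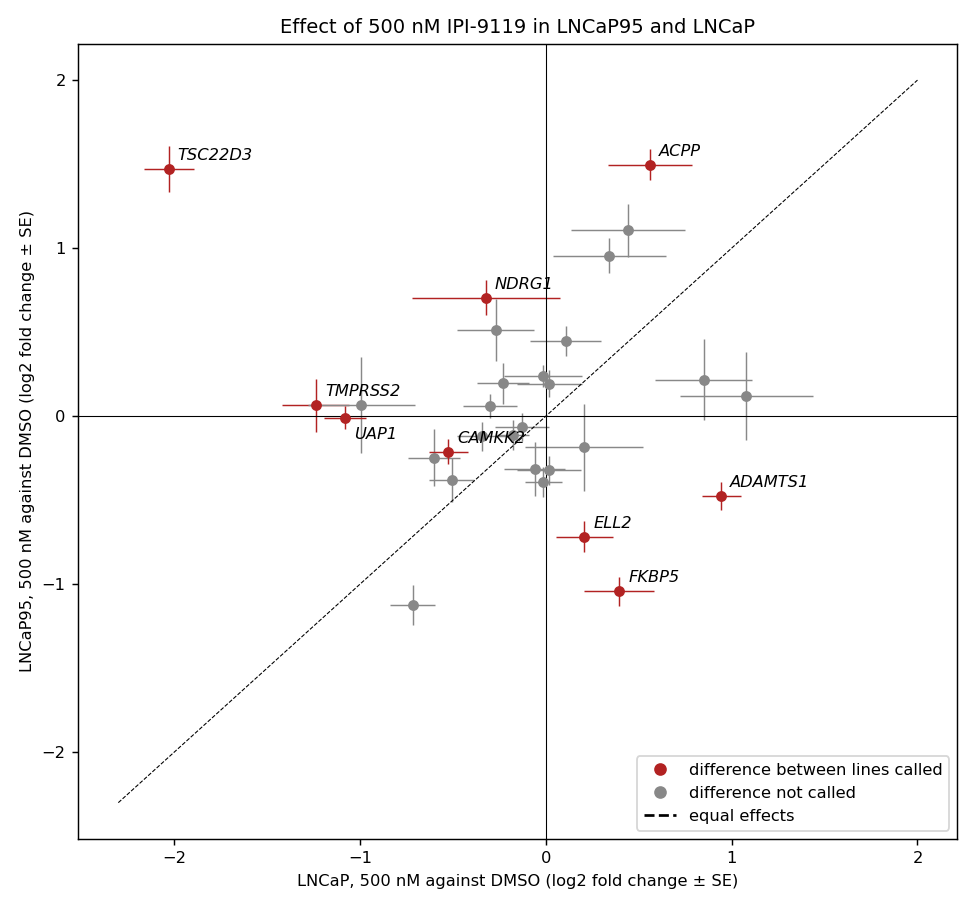
Log2 fold change at 500 nM against DMSO in LNCaP95 (vertical axis) and LNCaP (horizontal axis), one point per gene with its SE. Red points are the 9 genes whose response differed between these lines at an adjusted p under 0.05 (limma); TSC22D3 lies furthest from the diagonal, at -2.03 in LNCaP and 1.47 in LNCaP95.

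Other genes of the androgen pathway were followed in lists drawn up from general knowledge. At 500 nM the share of all genes tested was 11.0% higher and 9.83% lower in LNCaP, 3.47% and 3.5% in 22Rv1, and 28.2% and 24.1% in LNCaP95, beside which the counts of each list stand. The kallikreins KLK2, KLK3 and KLK4 are the best known targets. KLK3, which encodes PSA, fell in LNCaP by 1.94 ± 0.20 at 500 nM (adjusted p = 9.72e-05) and KLK2 by 1.62 ± 0.25 (adjusted p = 0.00122), while KLK4 was not called (-0.40 ± 0.16). KLK3 held 2482, 3637 and 3752 normalised counts at 500 nM against 12816, 12836 and 11703 in DMSO. KLK2 held 1395, 1140 and 982 at 500 nM against 5945, 2840 and 2687 in DMSO, where replicate 1 was far above the others. In 22Rv1 KLK3 fell by 0.51 ± 0.14 (adjusted p = 0.0431). In LNCaP95 KLK3 rose by 0.61 ± 0.14 (adjusted p = 0.00266) and KLK4 by 0.39 ± 0.15 (adjusted p = 0.0481), with KLK2 at 0.13 ± 0.19, not called.

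In a list of 18 further androgen-induced genes, 6 rose and 4 fell of 17 tested in LNCaP, 3 rose and 2 fell of 17 in 22Rv1, and 6 rose and 4 fell of 16 in LNCaP95. The GTPase RHOU rose in LNCaP (1.69 ± 0.17, adjusted p = 0.0001) and the condensin subunit NCAPD3 fell in LNCaP95 (-1.33 ± 0.10, adjusted p = 6.39e-07).

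Genes that androgen represses gave 4 higher and 1 lower of 9 tested in LNCaP, 4 lower of 9 in 22Rv1, and 4 higher of 7 in LNCaP95. AKR1C3, which makes testosterone from androstenedione, rose in LNCaP95 by 2.33 ± 0.21 (adjusted p = 2.16e-06) and in LNCaP by 1.96 ± 0.56 (adjusted p = 0.0294), and fell in 22Rv1 by 1.14 ± 0.12 (adjusted p = 0.00029). AKR1C3 has close paralogs, and its values are uncertain where reads were shared. Of glucocorticoid-induced genes, 1 rose and 2 fell of 10 in LNCaP, with CRISPLD2 at 1.28 ± 0.20 (adjusted p = 0.00153). In 22Rv1, 0 of 11 passed with limma, with 2 at an unadjusted p under 0.05, and 2 rose and 2 fell of 9 in LNCaP95, with ERRFI1 at 0.81 ± 0.0735 (adjusted p = 2.03e-06). Of the hypoxia list, to which NDRG1 is related, 1 rose and 3 fell of 8 in LNCaP, 1 rose of 9 in 22Rv1, and 5 rose and 1 fell of 9 in LNCaP95. Its NDUFA4L2 fell by 2.81 ± 0.22 in LNCaP (adjusted p = 2e-05) and rose by 2.16 ± 0.21 in LNCaP95 (adjusted p = 2.94e-06). Of androgen metabolism genes, 3 of 7 rose in LNCaP, 1 of 7 fell in 22Rv1, and 3 rose and 2 fell of 7 in LNCaP95. AKR1C1, which inactivates dihydrotestosterone and has the same paralogs, was at 2.60 ± 0.36, -0.78 ± 0.20 and 1.91 ± 0.21 in LNCaP, 22Rv1 and LNCaP95.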

How the data were processed

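Poly(A) RNA of 27 libraries was made into directional libraries and sequenced in pairs, per the labels' protocols. Reads were aligned with STAR 2.3.1z4 to hg19, counted with featureCounts and normalised with DESeq, per the submitters' processing notes. No strand setting of the counting is stated, so overlapping genes are uncertain. The deposited table holds 1 signal value per gene and library, the authors' counts divided by a size factor. Whole reads were recovered for 100% of values (tolerance 1e-06), and no column was without a sample.

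The main test was limma-trend (limma 3.58.1, R 4.3.3) on log2(value + 1), per line for doses and in 1 fit of 27 libraries for untreated lines and for differences in response. Genes needed 10 or more in at least 3 fitted libraries. A fold change on this scale understates the change of low genes. Intervals are standard errors, and p-values were Benjamini-Hochberg adjusted over all genes tested. The fits were tested on simulated data of independent libraries with a fixed spread and no outlying library. That does not test them on the replicate differences seen here. Alternatives were a pseudocount of 4, no filter, equal library totals, quantile normalisation, edgeR 4.0.16 quasi-likelihood and DESeq2 1.42.0 on recovered reads, a replicate block, 1 fit of all 27, LNCaP replicates 2 and 3, and each replicate left out. A fit of the 9 DMSO libraries was added after seeing the data.

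Same-numbered libraries deviated together in LNCaP95 (every correlation of deviations from group means 0.128 or more) and between DMSO and 500 nM in LNCaP (0.131 or more), so these numbers were taken as pairs. In LNCaP the pairing of DMSO with 500 nM is uncertain, since DMSO replicate 3 and 500 nM replicate 2 also correlated at 0.131. Same-numbered 100 and 500 nM libraries of LNCaP correlated at 0.380, 0.263 and 0.389, and different-numbered ones negatively. With the replicate block, 0 of the 33 genes were called between these doses. Replicates differed beyond sampling noise. Every one of the 33 genes was accounted for; library values were printed for those called at 2-fold or more and for the highest and lowest per line. Of other lists, KLK2, KLK3, KLK4 and at most 4 genes of smallest p were named. The genes, lists and tests were chosen with earlier results of these data known. Some genes of the other lists are not reported here. Exon lengths came from a GRCh38 annotation.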

Additional observations from a re-analysis of the deposited data

Results flagged for a closer look

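The response to 500 nM IPI-9119 differed between lines in 24 instances, each by a test of the difference itself in the limma fit of all 27 libraries. Each value is a difference of log2 fold changes, so above 0 means a higher fold change in the line named first. For 22Rv1 minus LNCaP, the difference was above 0 for TMPRSS2 by 1.05 (adjusted p = 0.00919), TSC22D3 by 1.71 (adjusted p = 1.97e-06), CAMKK2 by 0.46 (adjusted p = 0.0113), UAP1 by 1.22 (adjusted p = 2.84e-07) and CENPN by 0.80 (adjusted p = 0.00203). It was below 0 for ADAMTS1 by -1.27 (adjusted p = 1.57e-06). For LNCaP95 minus LNCaP, the difference was above 0 for TMPRSS2 by 1.30 (adjusted p = 0.000451), ACPP by 0.94 (adjusted p = 0.00499), TSC22D3 by 3.50 (adjusted p = 1.03e-11), CAMKK2 by 0.31 (adjusted p = 0.0421), NDRG1 by 1.03 (adjusted p = 0.0448) and UAP1 by 1.07 (adjusted p = 3.46e-07). It was below 0 for ADAMTS1 by -1.42 (adjusted p = 8.4e-08), FKBP5 by -1.44 (adjusted p = 1.41e-05) and ELL2 by -0.92 (adjusted p = 0.00145). For LNCaP95 minus 22Rv1, the difference was above 0 for ACPP by 1.46 (adjusted p = 0.000249), SLC45A3 by 0.81 (adjusted p = 0.0156), TSC22D3 by 1.79 (adjusted p = 2.07e-06), MAF by 1.33 (adjusted p = 0.0201), NDRG1 by 1.23 (adjusted p = 0.0256) and ALDH1A3 by 1.68 (adjusted p = 0.000606). It was below 0 for FKBP5 by -1.35 (adjusted p = 0.000112), ELL2 by -0.58 (adjusted p = 0.0498) and CENPN by -1.20 (adjusted p = 2.31e-05). For LNCaP95 minus LNCaP, NDRG1 was lost without LNCaP DMSO replicate 1 (0.37, adjusted p = 0.0536), any LNCaP 500 nM replicate, or any LNCaP95 DMSO or 500 nM replicate (adjusted p = 0.052 to 0.0892), and CAMKK2 without LNCaP DMSO replicate 1 or 2, LNCaP 500 nM replicate 2 or 3, any LNCaP95 DMSO replicate, or LNCaP95 500 nM replicate 2 or 3 (adjusted p = 0.0514 to 0.155). For LNCaP95 minus 22Rv1, SLC45A3 was lost without LNCaP95 500 nM replicate 3 (0.62, adjusted p = 0.0578) and MAF without 22Rv1 500 nM replicate 2 (1.03, adjusted p = 0.0729). NDRG1 was lost there without 22Rv1 DMSO replicate 3, 22Rv1 500 nM replicate 1, LNCaP95 DMSO replicate 3 or LNCaP95 500 nM replicate 1 (adjusted p = 0.0506 to 0.058), and ELL2 without 22Rv1 DMSO replicate 1, 22Rv1 500 nM replicate 2 or 3, LNCaP95 DMSO replicate 1 or 2, or LNCaP95 500 nM replicate 1 or 3 (adjusted p = 0.0697 to 0.154). Equal library totals lost CAMKK2 for 22Rv1 minus LNCaP (adjusted p = 0.147), CAMKK2 (0.22, adjusted p = 0.236) and NDRG1 (0.93, adjusted p = 0.0691) for LNCaP95 minus LNCaP, and ELL2 (-0.52, adjusted p = 0.101) for LNCaP95 minus 22Rv1. No filter lost CAMKK2 (adjusted p = 0.0545) and NDRG1 (adjusted p = 0.0719) for LNCaP95 minus LNCaP and ELL2 (adjusted p = 0.0734) for LNCaP95 minus 22Rv1. With edgeR, CAMKK2 was lost for LNCaP95 minus LNCaP (adjusted p = 0.0664) and MAF for LNCaP95 minus 22Rv1 (adjusted p = 0.0584), and with quantile normalisation MAF (adjusted p = 0.0614) and ELL2 (adjusted p = 0.0963) for LNCaP95 minus 22Rv1. The groups had 3 libraries, too few for a test of single outlying libraries.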

How the results depend on the processing

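TMPRSS2, ADAMTS1, TSC22D3, CAMKK2, UAP1 and CENPN kept their calls at 500 nM in LNCaP under every alternative run, as did TMPRSS2, SLC45A3, ADAMTS1, TSC22D3, SPDEF, UAP1 and CENPN at 100 nM; 11 of 16 calls did so at each dose in LNCaP95, and 26 of 27, 24 of 29 and 26 of 30 untreated calls for LNCaP95 against LNCaP, 22Rv1 against LNCaP and LNCaP95 against 22Rv1. Counts of untreated calls moved by 1.5 times at most. Reversed were NDRG1 in LNCaP, at 0.34 at 500 nM with replicates 2 and 3 only, and, with a library left out, at -0.70 to 0.34 at 500 nM and -0.72 to 0.31 at 100 nM, positive without DMSO replicate 1, SGK1 in untreated 22Rv1 against LNCaP, at -0.95 with quantile normalisation, and NNMT in untreated LNCaP95 against 22Rv1, at 0.64 with quantile normalisation. Other sign changes were between values that were not called. Beside the losses named with each gene, the fit of all 27 libraries lost NDRG1 at both doses and GNMT at 500 nM in 22Rv1, and ALDH1A3 at 500 nM and LIFR and NDRG1 at 100 nM in LNCaP95. No filter lost ZNF189 and GNMT at 500 nM in 22Rv1 and ALDH1A3 in LNCaP95, equal totals ZNF189 in LNCaP and LIFR in LNCaP95 at 100 nM, DESeq2 ALDH1A3 and LIFR, and quantile normalisation ALDH1A3.
Counts moved as follows. In LNCaP at 500 nM, the 2 higher genes were 7 with the replicate block, 4 with all 27 libraries in 1 fit, 8 with replicates 2 and 3 only and 1 to 6 with a library left out, and the 8 lower genes 5 to 9. At 100 nM, the 2 higher were 6 with the block, 5 with all 27, 6 with replicates 2 and 3 and 1 to 6 with a library left out. For 500 against 100 nM in LNCaP, 0 higher became 2 with replicates 2 and 3. In 22Rv1 at 500 nM, the 1 higher was 0 with no filter, 2 with DESeq2, 0 with all 27 and 0 to 1 with a library left out, and the 3 lower 1 to 3; at 100 nM, 0 higher was 0 to 1 and 2 lower 1 to 3. In LNCaP95, 8 higher was 5 at each dose with all 27. For differences in response, 22Rv1 minus LNCaP went from 5 above 0 to 8 with quantile normalisation and 10 with the block, and from 1 below to 2 with equal totals, 3 with the block and 1 to 4 with a library left out. LNCaP95 minus LNCaP had 11 above and 7 below with the block, 6 below with equal totals and 3 to 7 below with a library left out; LNCaP95 minus 22Rv1 had 6 below with the block. The cause was not tested. The replicate numbers did not pair LNCaP DMSO with 100 nM libraries, or 22Rv1 libraries (lowest correlations -0.003 and -0.291), and the block there is a number only. For LNCaP DMSO with 500 nM libraries the pairing is uncertain. In LNCaP95 the block changed no call but those of LIFR and MED28. The 3 libraries a group and 14757874 reads at the least limit what can be called for low genes such as SGK1, TRPM8 and BMPR1B.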
